A study of Mus musculus with 4 samples.

Results

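The well-detected non-coding RNAs are 62 of the 1816 rows that the authors' count table marks as other than protein-coding, in a table of 14934 rows. They were selected on their raw counts, by having at least 300 in each of the 4 libraries, so their abundance is a property of the choice and not a result. The libraries come from CD8 T cells, the cytotoxic lymphocytes, taken from mouse hepatocellular carcinoma and separated in a flow cytometer by JAML, the junctional adhesion molecule-like surface receptor. The JAML-positive group holds replicates A and B, and the JAML-negative group holds replicates A and B. Cells of both groups were labelled wild type, no treatment is given, and the labels do not give the age, the strain, the tumour model or whether A and B are separate animals. All p-values therefore reflect only how far these libraries scatter, and that scatter may be technical.

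Long non-coding RNAs are long transcripts that carry no long reading frame. Many of them, but not all, are spliced and processed like messenger RNAs. Some stay in the nucleus and take part in nuclear bodies: Malat1 collects in nuclear speckles beside splicing factors, and Neat1 is the scaffold of paraspeckles. Others are the spliced shells of genes whose introns release small nucleolar RNAs (snoRNAs), which guide the chemical modification of ribosomal RNA. Others again lie beside or across a coding gene, or are known from lymphocytes, as AW112010 is.

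RefSeq (GRCm38.p6) held 56 of the 62 members by Entrez identifier and typed all 56 as long non-coding RNA. The other 6 carry LOC symbols and are reported by symbol and count only. GENCODE M21 held 47 members, with a median transcript length of 2556 nucleotides and a range of 430 to 20771, against a median of 3362 over all tested genes. None of the small structural RNAs listed for comparison (RNase P and MRP RNA, 7SK, snoRNAs, spliceosomal RNAs) met the count minimum as a row of its own. How far the mRNA-Seq kit captured such RNAs was not tested, so no level in the cells is read from this. The members just inside the minimum were Epb41l4aos with a lowest count of 300, Gm33104 with 311 and Gm10353 with 315, and the rows just outside were A230045G11Rik with 292, A430088P11Rik with 285 and Gm36496 with 282.

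Malat1 and Neat1 lie 22036 bp apart on chromosome 19, on the minus strand, and both have an unusual 3′ end. In the transcripts of 6983 (Malat1) and 20771 (Neat1) nucleotides, that end is cut by RNase P. It is protected by a triple helix of 2 U-rich runs and an A-rich tract in place of a poly(A) tail. How far the mRNA-Seq kit used for these libraries captured RNA without such a tail was not tested. The end segments, found in the GRCm38 genome and read on the transcript strand, are shown because both transcripts had lower values in JAML-positive cells. Capitals mark the 2 T-rich runs and the A-rich tract. The Malat1 segment is chr19:5795982-5796067, 292 bases before the annotated end, and the Neat1 segment is chr19:5824708-5824797, at the annotated end of the 20771-nucleotide transcript.
Malat1: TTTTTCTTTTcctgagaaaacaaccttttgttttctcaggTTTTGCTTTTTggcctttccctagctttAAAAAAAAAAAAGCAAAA
Neat1: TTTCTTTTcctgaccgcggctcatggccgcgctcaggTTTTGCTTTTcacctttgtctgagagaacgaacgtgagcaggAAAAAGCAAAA

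The members took 0.611% and 0.558% of all counts in the JAML-positive libraries A and B, against 0.591% and 0.615% in the JAML-negative libraries A and B. They held 61.2% and 58% of the counts of all non-coding rows in JAML-positive libraries, against 57.3% and 59.1% in JAML-negative libraries. The summed output of the members thus overlapped between the groups. The make-up differed in one library: AY036118 was the most abundant member in JAML-positive A, whereas Malat1 was the most abundant in the other 3. Library totals lay between 27530187 and 30569728 counts.

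Several facts of the libraries bear on all that follows. Jaml itself did not separate the groups by the test, at 138 and 147 CPM (counts per 1000000, scaled) in JAML-positive libraries, against 131 and 117 in JAML-negative libraries (log2 fold change 0.20 with an SE of 0.27, edgeR adjusted p = 0.881). JAML-positive A stood apart: 12.5% of its counts fell on ribosomal protein genes, against 7.71% in JAML-positive B and 8.62% and 8.52% in JAML-negative A and B. The 7 T cell markers present summed to 4426 and 3878 CPM in JAML-positive libraries, against 4011 and 4045 in JAML-negative libraries. Markers of B and plasma cells (126 and 84.9, against 10.4 and 18.1 CPM), macrophages (181 and 132, against 57.1 and 58.3), plasmacytoid dendritic cells (270 and 253, against 99.6 and 112) and dendritic cells with MHC class II (488 and 297, against 235 and 193) summed higher in the JAML-positive libraries. Gene by gene, 4 macrophage markers were higher and 2 lower, and 7 dendritic cell markers were higher and 1 lower. All tested B and plasma cell (4) and plasmacytoid (5) markers were higher. CD4 T cell markers summed higher (143.7 and 173.3, against 125.5 and 124.7 CPM). Sums overlapped for NK cells (130 and 152, against 145 and 141) and hepatocytes (14.5 and 14.9, against 23.9 and 4.25). The 2 erythroid markers summed to 49.5 and 12.7 CPM in JAML-positive libraries, against 0 and 0.036 in JAML-negative libraries. The part of these cells and of RNA composition in the results for the non-coding RNAs was not tested, and in bulk samples fewer cells of a type and less RNA per cell cannot be told apart.

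All 62 members entered the edgeR quasi-likelihood test, in which 0 of 11563 genes (0%) and 0 members passed an adjusted p of 0.05. At an unadjusted p under 0.05, 7 members (11.3%) stood out, 2 higher and 5 lower in JAML-positive cells. Over all tested genes the share was 7.65%, with 4.32% higher and 3.34% lower. By direction alone 28 members had higher and 34 lower values, while 49.3% of all tested genes had lower values. Their median log2 fold change was -0.06, against 0.01 over all tested genes and -0.18 over the 813 tested non-coding genes. In 23 members (37.1%) the groups did not overlap, 8 of them higher and 15 lower, against 38.5% of all tested genes, 20.3% higher and 18.2% lower. The members as a whole therefore lay close to the background of the table. Since the minimum applied to every library, rows that fell under it in a single library were left out. Among the 134 non-coding rows with a mean of at least 300 counts, 72 are not members, and the median over the 134 was -0.16.

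**Figure D1:**
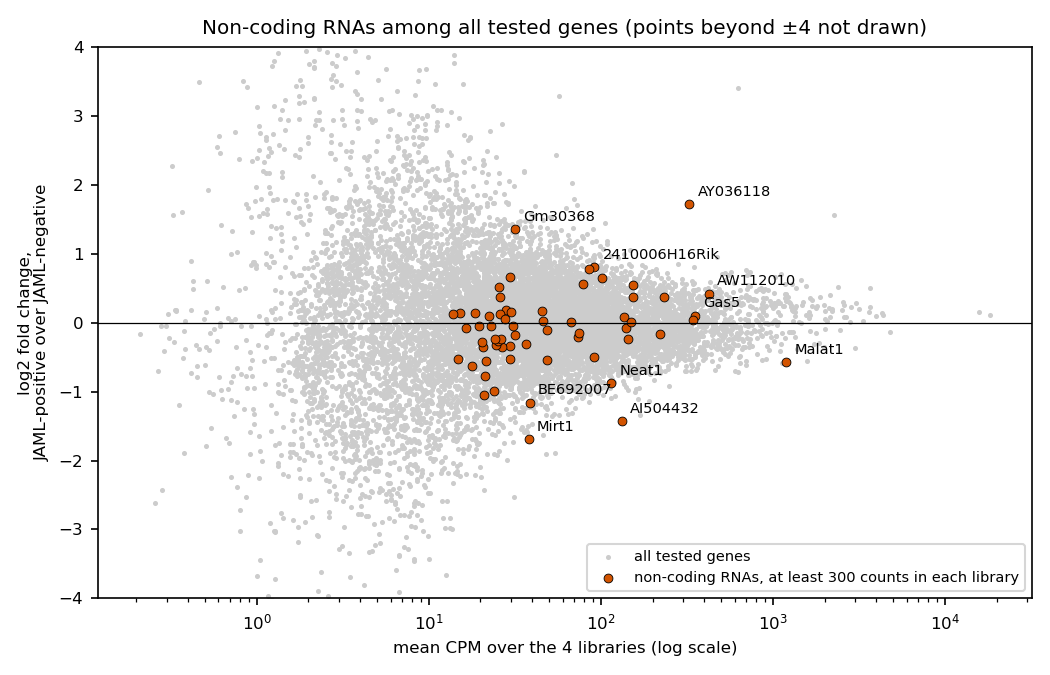
Log2 fold change, JAML-positive over JAML-negative (vertical axis, cropped at the limits shown), against mean CPM over the 4 libraries (horizontal axis, log scale) for all 11563 tested genes (grey) and the 62 members (orange). The members scatter around 0 like other genes of their abundance, with Malat1 and AI504432 among those below 0 and AY036118 above.

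The list of nuclear-retained RNAs, which includes Malat1 and Neat1, had lower values in JAML-positive cells in 5 of its 6 members present, and in those 5 the groups did not overlap. Over all tested genes 18.2% were lower without overlap. The edgeR unadjusted p was under 0.05 in 3 of the 5, against 3.34% of all tested genes that were lower at that p. Their summed level was 1104 and 1709 CPM in JAML-positive A and B, against 2118 and 2092 CPM in JAML-negative A and B, and Malat1 made up most of each sum. The median log2 fold change was -0.67, against 0.01 over all tested genes, and 0 of the 6 passed the adjusted test. The list was chosen with the values of Malat1 and AI504432 known, so its direction is a description.

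AI504432 (Entrez 229694) is a spliced lncRNA of 2 exons and 5569 nucleotides on chromosome 3, 107039504 to 107054322, plus strand. It had 74.3 and 69.6 CPM in JAML-positive libraries, against 190 and 197 CPM in JAML-negative libraries. The libraries of each group lay close together and far from those of the other. The log2 fold change was -1.43 (SE 0.27, 95% interval -2.02 to -0.83), a 2.69-fold lower level, with the smallest adjusted p of any member (edgeR, 0.477). With any one library left out the value stayed between -1.47 and -1.38. DESeq2 called it (adjusted p = 3.23e-14), as the only tool of 3 that did so; limma-voom gave an adjusted p of 0.773. It lies 1375 bp from Kcna3, a voltage-gated potassium channel gene of T cells on the same strand. Kcna3 had 7.87 and 25.5 CPM in JAML-positive libraries, against 31.1 and 29.8 CPM in JAML-negative libraries (log2 fold change -0.82, SE 0.63, adjusted p = 0.765).

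Malat1 (chromosome 19, 5795690 to 5802672, a single exon of 6983 nucleotides) had 737 and 1176 CPM in JAML-positive libraries, against 1442 and 1416 CPM in JAML-negative libraries. Both JAML-positive libraries lay below both JAML-negative libraries, and JAML-positive A lay far below B. The fit put Malat1 at -0.58 on the log2 scale with an SE of 0.23 (edgeR adjusted p = 0.609). Without JAML-positive A, the library rich in ribosomal protein counts, it was -0.28, and without JAML-positive B it was -0.96. Each of these fits leaves a single JAML-positive library, so only the effect size is given. The size of the difference in Malat1 thus rested on JAML-positive A.

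Neat1 (Entrez 66961, chromosome 19, 5824708 to 5845480) had 51.6 and 109 CPM in JAML-positive libraries, against 136 and 163 CPM in JAML-negative libraries. As with Malat1, JAML-positive A was the lowest and the groups did not overlap. On the log2 scale this was a difference of -0.88 with an SE of 0.35 (edgeR adjusted p = 0.609). It was -0.45 without JAML-positive A, -1.54 without JAML-positive B, and -0.59 with the trend on transcript length removed.

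The other nuclear-list members each had an unadjusted p above 0.05. Tug1, first described in the retina and found in nucleus and cytoplasm, had 119 and 144 CPM in JAML-positive libraries, against 146 and 166 CPM in JAML-negative libraries (log2 fold change -0.24, SE 0.26). Pvt1, which lies beside the growth regulator gene Myc, had 12.0 and 19.3 CPM in JAML-positive libraries, against 25.9 and 28.1 CPM in JAML-negative libraries (-0.77, SE 0.61). Myc, 47625 bp away, had 76.7 and 113 CPM in JAML-positive libraries, against 163 and 141 CPM in JAML-negative libraries (-0.67, SE 0.29, edgeR adjusted p = 0.609). Both lay lower in each JAML-positive library than in either JAML-negative library. Norad, which despite the list acts mainly in the cytoplasm, where it binds Pumilio proteins, had 111 and 191 CPM in JAML-positive libraries, against 178 and 122 CPM in JAML-negative libraries. Its log2 fold change of 0.01 (SE 0.32) had no stable sign: it was just below 0 with RLE size factors, with library totals only, with the replicate block, with DESeq2 and with limma-voom.

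**Figure D2:**
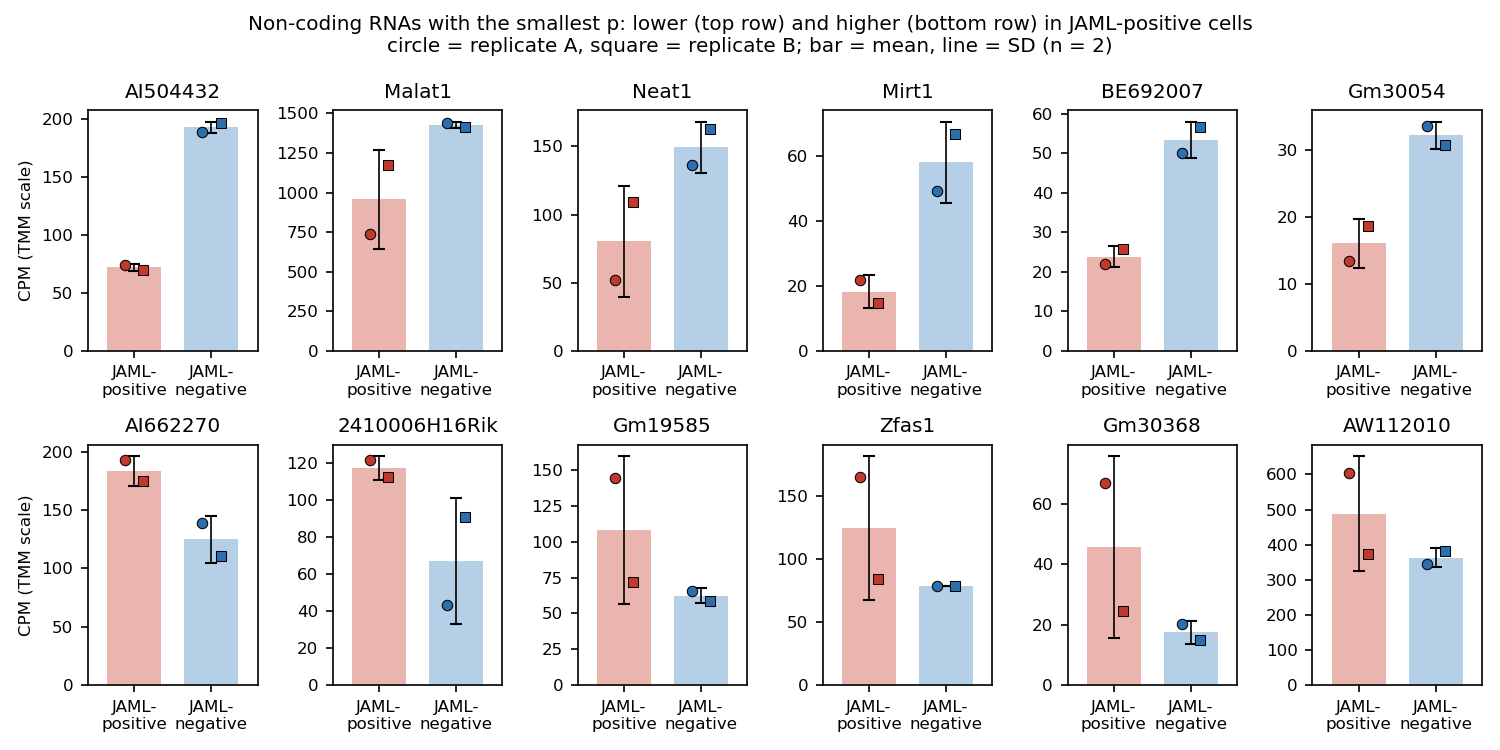
CPM (vertical axes, TMM scale) of the 6 members with the smallest p among those lower (top) and higher (bottom) in JAML-positive cells, with JAML-positive left of JAML-negative, circles for replicate A, squares for replicate B, bars for the mean and lines for the SD (n = 2). AI504432 lies at 74.3 and 69.6 CPM in the JAML-positive libraries and at 190 and 197 CPM in the JAML-negative libraries, and the JAML-positive A library is the lower of its pair for Malat1 and Neat1.

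Among the members of at least 4000 nucleotides, 9 of 15 had lower values in JAML-positive cells, 4 of them at an unadjusted p under 0.05. Of all 4173 tested genes of that length, 2418 had lower and 1755 higher values, and 221 were lower at an unadjusted p under 0.05. Of the 32 shorter members, 18 had lower values, with 1 at an unadjusted p under 0.05 in each direction. Among all 6941 shorter tested genes, 3028 had lower and 3913 higher values, and 148 were lower and 376 higher at an unadjusted p under 0.05. Longer genes thus had lower values more often than shorter genes over the whole table. With the trend on length removed, the log2 fold changes were -0.45 for Malat1, -0.59 for Neat1, -1.13 for BE692007 and -1.33 for AI504432. The part of length in these values was not tested.

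Members outside the nuclear list supplied the remaining low values. Mirt1 (Entrez 381232, chromosome 19, 53441212 to 53464796, minus strand), a lncRNA named after myocardial infarction and not a host of a microRNA, had 21.7 and 14.7 CPM in JAML-positive libraries, against 49.1 and 66.8 CPM in JAML-negative libraries. The groups were well separated. Its log2 fold change stood at -1.69 (SE 0.50, 95% interval -2.77 to -0.60, edgeR adjusted p = 0.609), the lowest of all 62 members, and -1.98 to -1.42 with one library left out. Its exons share 1008 bases (11.8%) with 4833407H14Rik on the opposite strand, which had under 7 CPM in every library.

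BE692007 (Entrez 100504727, chromosome 19, 11473447 to 11482579, minus strand) had 21.9 and 25.6 CPM in JAML-positive libraries, against 50.1 and 56.6 CPM in JAML-negative libraries. By edgeR it stood at -1.16 on the log2 scale with an SE of 0.46 (adjusted p = 0.609), and -1.29 to -1.05 with one library left out. It lies across Ms4a6c, a membrane protein gene on the opposite strand, with which it shares 20.8% of its exonic bases. Ms4a6c had 16.3 and 8.03 CPM in JAML-positive libraries, against 11.5 and 7.88 CPM in JAML-negative libraries, and so overlapped between the groups where BE692007 did not. The nearby Ms4a4b differed by 0.001 on the log2 scale with an SE of 0.20, and Ms4a6b by -0.06 with an SE of 0.21. DESeq2 called BE692007 (adjusted p = 0.00325) and Mirt1 (adjusted p = 0.000711), and with AI504432 these were its 3 calls among the members. Over all 11563 tested genes DESeq2 called 536 higher and 349 lower.

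Gm30054 had 13.5 and 18.6 CPM in JAML-positive libraries, against 33.6 and 30.7 CPM in JAML-negative libraries (log2 fold change -0.99, SE 0.58, edgeR adjusted p = 0.647). It is antisense to Fam149b and shares 82.9% of its exonic bases with it. Gm10353, at 11.9 and 15.1 CPM in JAML-positive libraries against 22.9 and 33.7 CPM in JAML-negative libraries (-1.05, SE 0.63), shares 43.9% with Eml3 on the opposite strand. In both, the groups did not overlap, but the counts are uncertain. The sources used here do not give how the counting treated strand, and without strand reads of a gene and its antisense partner cannot be told apart.

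The 6 members with the smallest p among those higher in JAML-positive cells were 2410006H16Rik, Gm30368, AI662270, Gm19585, Zfas1 and AW112010. The groups overlapped in AW112010 and did not overlap in the other 5. In Gm30368, Gm19585, Zfas1 and AW112010, JAML-positive B lay close to the JAML-negative libraries and JAML-positive A well above them. 2410006H16Rik (Entrez 69221, chromosome 11, 62602877 to 62604806, plus strand), a transcript of 462 nucleotides, had 122 and 112 CPM in JAML-positive libraries, against 43.0 and 90.8 CPM in JAML-negative libraries. JAML-negative A was the low library. The difference on the log2 scale was 0.81 with an SE of 0.37 (edgeR adjusted p = 0.609), and it was 0.36 without JAML-negative A and 0.37 with the length trend removed. AI662270 (Entrez 100043636, chromosome 11, 83223576 to 83226584, plus strand) had 192 and 174 CPM in JAML-positive libraries, against 139 and 111 CPM in JAML-negative libraries (0.55, SE 0.26, adjusted p = 0.609). It was between 0.40 and 0.72 with one library left out. Its nearest coding gene in the table, Slfn3, of the Schlafen family named for its link to lymphocyte growth, had 5.52 and 2.94 CPM in JAML-positive libraries, against 13.6 and 17.1 CPM in JAML-negative libraries. That is the opposite direction (-1.90, SE 0.97, adjusted p = 0.613).

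Gm30368 (chromosome 15, 78912204 to 78927995, minus strand) had 67.0 and 24.4 CPM in JAML-positive libraries, against 20.1 and 14.8 CPM in JAML-negative libraries. On the log2 scale it differed by 1.35 with an SE of 0.62 (edgeR adjusted p = 0.609), by 0.48 without JAML-positive A and by 1.94 without JAML-positive B. Its span overlaps that of Lgals1 on the opposite strand, the gene of the glycan-binding protein galectin-1. Lgals1 had 892 and 369 CPM in JAML-positive libraries, against 404 and 369 CPM in JAML-negative libraries. In both genes JAML-positive A was the highest library. Since the handling of strand in the counting is not given, reads of Lgals1 in the shared span cannot be told apart from reads of Gm30368.

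Zfas1 and Gm19585 had the same shape. Zfas1, an antisense neighbour of Znfx1 that hosts snoRNAs, had 165 and 84.6 CPM in JAML-positive libraries, against 78.5 and 78.9 CPM in JAML-negative libraries. Its log2 fold change of 0.65 (SE 0.36) was 0.11 without JAML-positive A and 1.07 without JAML-positive B. Gm19585 had 145 and 72.0 CPM in JAML-positive libraries, against 66.0 and 58.6 CPM in JAML-negative libraries. Its log2 fold change of 0.78 (SE 0.38) was 0.21 without JAML-positive A and 1.21 without JAML-positive B. Neither passed the test (edgeR adjusted p = 0.623 and 0.609).

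**Figure D3:**
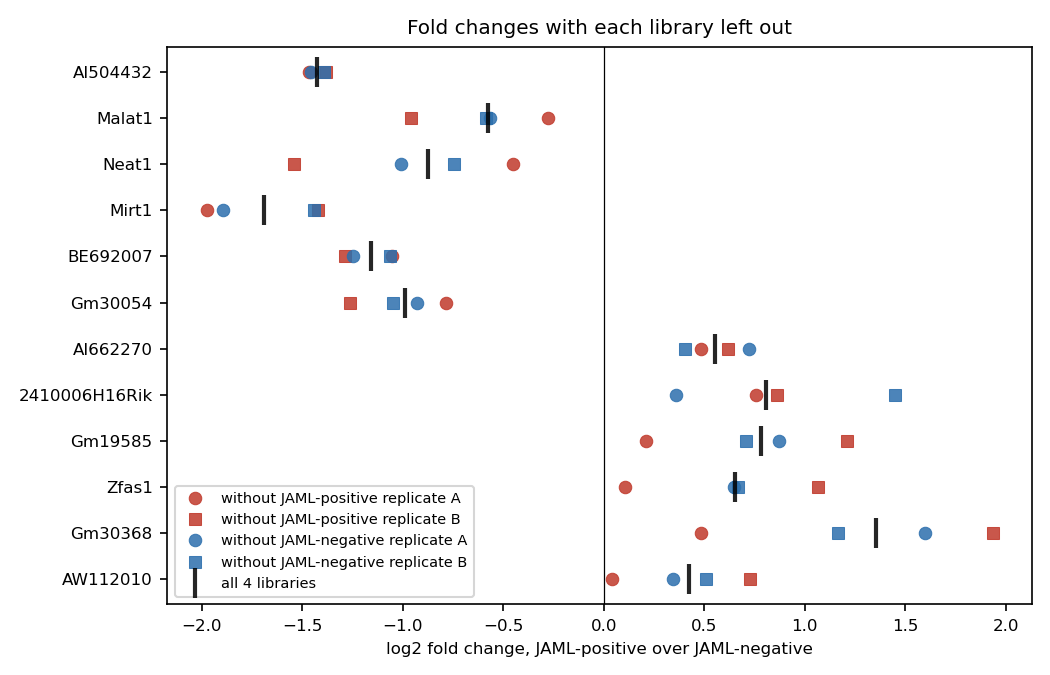
Log2 fold change, JAML-positive over JAML-negative, of the 6 members with the smallest p in each direction, with all 4 libraries (bar) and with each library left out (points). AI504432 stays between -1.47 and -1.38, whereas Zfas1, Gm19585 and AW112010 lie near 0 without JAML-positive A.

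AW112010 (Entrez 107350, chromosome 19, 11047612 to 11050566, minus strand) is annotated as non-coding, although a protein translated from it has been described in mouse macrophages, and in mouse T cells it is known as an inducible RNA. It had 604 and 372 CPM in JAML-positive libraries, against 344 and 382 CPM in JAML-negative libraries, so the groups overlapped. The difference on the log2 scale was 0.42 with an SE of 0.25 (edgeR adjusted p = 0.653), and it was 0.04 both without JAML-positive A and with the length trend removed. Per kilobase of transcript it was the member with the highest level among those with one agreed gene model, at 634 CPM per kb in JAML-positive cells and 472 in JAML-negative cells. By the same scale 2410006H16Rik had 253 CPM per kb in JAML-positive and 145 in JAML-negative cells, Malat1 had 137 and 205, and Gas5 had 143 and 133. Of these 3, 2410006H16Rik was highest in JAML-positive cells and Malat1 in JAML-negative cells. Malat1 and Gas5 in JAML-positive cells differed by less than the spread between replicates, so their order there is not settled. The lymphocyte RNA A430093F15Rik, which lies 1921 bp from the T cell surface gene Cd5, had 20.95 and 22.4 CPM in JAML-positive libraries, against 13.3 and 41.6 CPM in JAML-negative libraries. The pair of JAML-negative values enclosed the JAML-positive pair, and the sign turned when JAML-negative B was left out (0.72).

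AY036118 (Entrez 101056014, chromosome 17, 39848112 to 39898385 in RefSeq) varied most. It had 748 and 254 CPM in JAML-positive libraries, against 47.3 and 255 CPM in JAML-negative libraries. The gap within the JAML-negative pair, 2.43 on the log2 scale, was the widest of any member in either group. Between the groups the log2 difference was 1.72 with an SE of 0.89 (edgeR adjusted p = 0.653), and 0.76 to 3.40 with one library left out. Its RefSeq span shares 91 bp with Rn18s-rs5, a copy of 18S ribosomal RNA, so its reads may belong to more than one place. Lars2, a mitochondrial leucyl-tRNA synthetase on another chromosome, likewise had its highest value in JAML-positive A and its lowest in JAML-negative A (2108 and 198 CPM in JAML-positive, against 37.4 and 181 CPM in JAML-negative) and was picked after its values were seen.

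The list of snoRNA hosts, made of Gas5, Epb41l4aos and the Snhg genes, had no common direction. The list goes by symbol, and members with other symbols were not checked for snoRNAs, so it may be incomplete. Zfas1, described above, also hosts snoRNAs but is not on the list and is not counted here. Of the 7 listed, 3 had higher and 4 lower values in JAML-positive cells, and 0 had an unadjusted p under 0.05. Their median log2 fold change was -0.16, against 0.01 over all tested genes. They summed to 919 and 667 CPM in JAML-positive libraries, against 870 and 775 CPM in JAML-negative libraries, so that the pairs overlapped. Gas5, an RNA that accumulates in growth arrest, had 407 and 325 CPM in JAML-positive libraries, against 363 and 318 CPM in JAML-negative libraries (log2 fold change 0.10, SE 0.22, 95% interval -0.38 to 0.58). Snhg1 had 248 and 170 CPM in JAML-positive libraries, against 213 and 254 CPM in JAML-negative libraries (-0.17, SE 0.26). Snhg5 was the one RNA of the list whose groups did not overlap, at 53.3 and 27.5 CPM in JAML-positive libraries, against 56.6 and 58.5 CPM in JAML-negative libraries (-0.54, SE 0.44, edgeR adjusted p = 0.781). Snhg8 had 98.5 and 43.7 CPM in JAML-positive libraries, against 97.7 and 58.0 CPM in JAML-negative libraries, so that replicate A was high in both groups. Snhg12 (-0.20, SE 0.37), Snhg17 (0.09, SE 0.59) and Epb41l4aos (0.13, SE 0.78) likewise overlapped.

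Many snoRNA host genes, like the genes of ribosomal proteins, start transcription at a C within a run of pyrimidines, the terminal oligopyrimidine motif. The starts of 4 hosts are printed as RefSeq annotates them on GRCm38.p6, with 20 bases before the first transcribed base and 40 from it. Capitals mark a C followed by 4 or more further C or T that begins within 10 bases of the start, read on the transcript strand only.
Gas5, chr1:161035146-161035205, plus strand, the second of its annotated starts: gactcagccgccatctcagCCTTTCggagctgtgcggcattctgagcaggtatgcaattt
Snhg12, chr4:132308658-132308717, plus strand: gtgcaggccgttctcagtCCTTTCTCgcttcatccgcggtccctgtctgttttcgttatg
Snhg8, chr3:123508297-123508356, minus strand: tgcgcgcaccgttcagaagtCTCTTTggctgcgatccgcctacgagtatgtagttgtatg
Snhg5, chr9:88522858-88522917, minus strand: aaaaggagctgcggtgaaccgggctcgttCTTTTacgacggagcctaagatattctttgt

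Such a run was present in 4 of the 6 listed hosts with a start sequence (66.7%), not in Zfas1, in 22 of 46 members (47.8%), in 37 of 61 ribosomal protein genes (60.7%) and in 34.4% of all 27025 genes with a start sequence. A match describes these letters only. The hosts with it did not share a direction: Gas5 had a value above 0, and Snhg5, Snhg8 and Snhg12 had values below 0, while the ribosomal protein share of counts was highest in JAML-positive A.

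Mir22hg is the host of a microRNA, and its mature products, as RefSeq places them on GRCm38.p6, are printed with the seed (bases 2 to 8) in capitals. They lie on the plus strand of chromosome 11, the 3p arm at chr11:75463772-75463793 and the 5p arm at chr11:75463734-75463755.
mmu-miR-22-3p: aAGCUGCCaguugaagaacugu
mmu-miR-22-5p: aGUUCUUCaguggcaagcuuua

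The host transcript had 15.9 and 12.3 CPM in JAML-positive libraries, against 17.3 and 25.7 CPM in JAML-negative libraries (log2 fold change -0.63, SE 0.67, edgeR adjusted p = 0.849). Both JAML-positive libraries lay below both JAML-negative libraries. These libraries do not measure the mature microRNA.

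The remaining 45 members belong to no role list: 23 had higher and 22 lower values, with a median log2 fold change of 0.00. Mirt1 is not among these 45, because the start of its symbol put it on the microRNA host list, although it is not a host. They comprise 21 with Gm symbols (median 0.00), 6 with RIKEN symbols (0.04), 6 with LOC symbols (-0.01), 4 named for lying opposite a coding gene (-0.05) and 8 others. Of the LOC members, LOC118567527 had 403 and 296 CPM in JAML-positive libraries, against 390 and 291 CPM in JAML-negative libraries. LOC118567469 had 347 and 182 CPM in JAML-positive libraries, against 195 and 209 CPM in JAML-negative libraries, and both overlapped between the groups. Several of the other members have known roles elsewhere, and none of those named next had an unadjusted p under 0.05. Oip5os1, known as Cyrano, which promotes the decay of a microRNA, averaged 24.4 ± 9.04 CPM in JAML-positive and 28.4 ± 1.28 CPM in JAML-negative libraries (SD, n = 2 each, log2 fold change -0.24, SE 0.56). Peg13, an imprinted transcript inside Trappc9, had 23.6 and 28.6 CPM in JAML-positive libraries, against 36.7 and 29.4 CPM in JAML-negative libraries, lower without overlap (-0.34, SE 0.51). Chaserr, which in mouse holds down its neighbour Chd2, had 141 and 139 CPM in JAML-positive libraries, against 90.2 and 174 CPM in JAML-negative libraries (0.08, SE 0.32), though 30.5% of its exonic bases are shared with Chd2. Chd2 had 210 and 325 CPM in JAML-positive libraries, against 324 and 378 CPM in JAML-negative libraries (-0.39, SE 0.25). The transcript of the Gt(ROSA)26Sor locus, used as a site for transgenes because it is active in most cells, had 14.5 and 17.5 CPM in JAML-positive libraries, against 14.3 and 19.8 CPM in JAML-negative libraries.

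**Figure D4:**
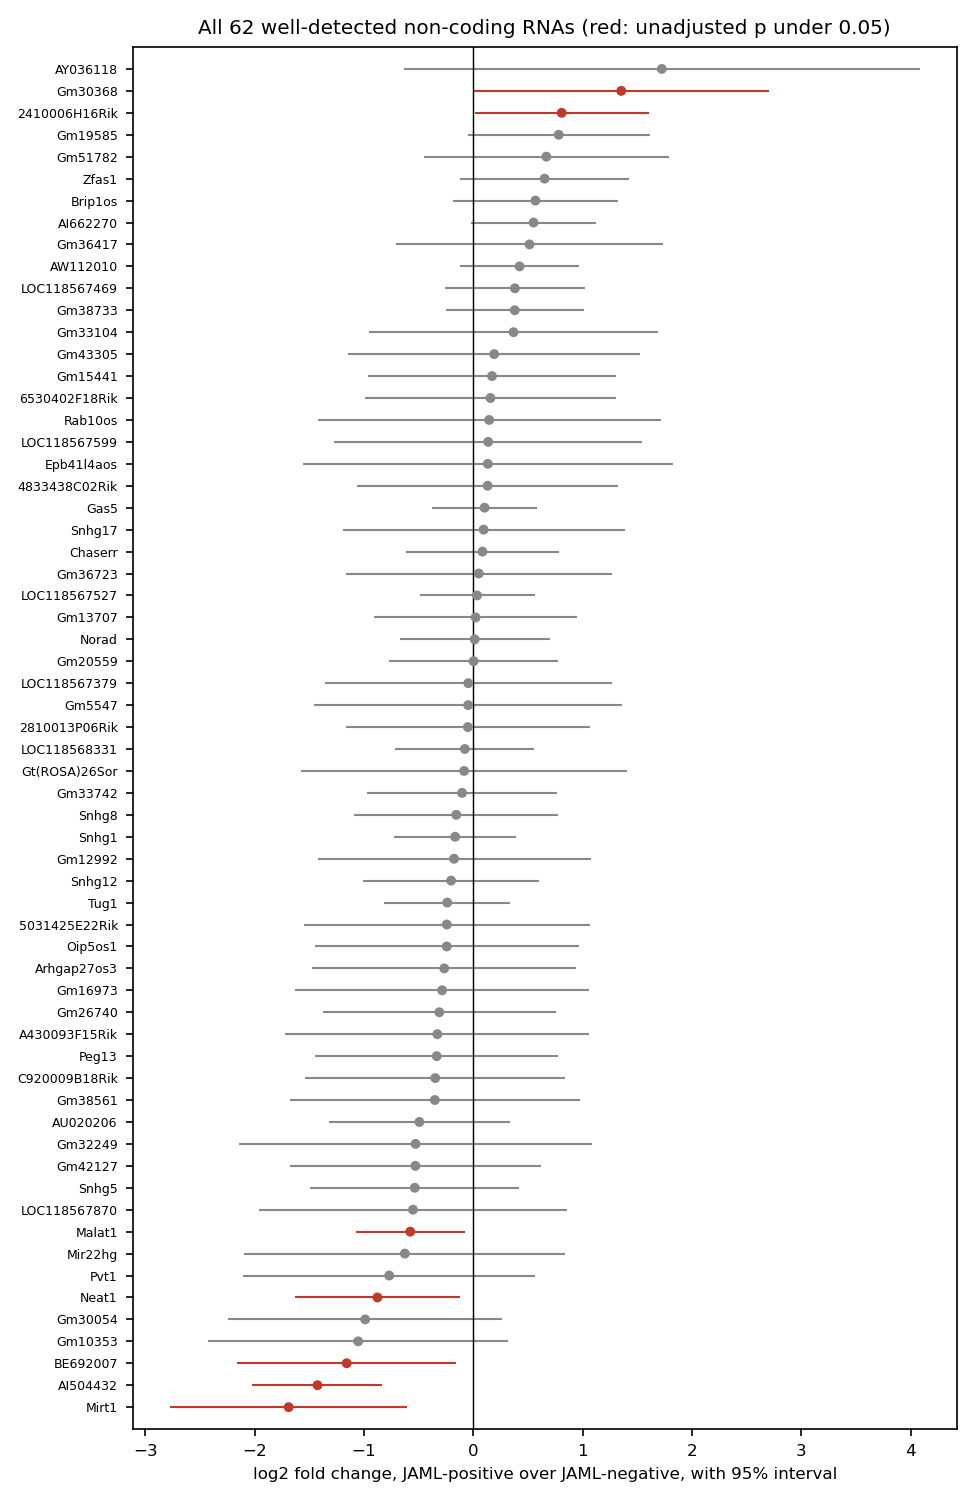
Log2 fold change, JAML-positive over JAML-negative, of all 62 members in order, with lines for the 95% interval of the edgeR fit and red for an unadjusted p under 0.05. The values run from -1.69 for Mirt1 to 1.72 for AY036118, and the intervals of all members but the 7 in red include 0.

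Members were not evenly placed in the genome. Chromosome 19 held 9 of the 56 placed members (16.1%), against 3.74% of tested non-coding genes and 3.63% of all tested genes, and 7 of these 9 had lower values. They include Malat1, Neat1, Mirt1 and BE692007, 4 of the 5 members lower at an unadjusted p under 0.05. On chromosome 2, by contrast, 1 of 7 members had lower values. Over all tested genes 49.3% had lower values, and 3.34% were lower at an unadjusted edgeR p under 0.05. The directions of all tested genes of chromosome 19 were not counted. Placement and direction are a description, since the members were chosen for abundance with earlier results known.

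Of the placed members, 24 overlap the span of their nearest coding gene in the table and 6 more lie close by without overlapping it. Where that coding gene was tested, it had the direction of the member in 28 of 50 cases and the opposite direction in 22. The pairs AI504432 with Kcna3, Pvt1 with Myc and, with overlapping spans, Gm30368 with Lgals1 had the same direction. AI662270 with Slfn3, BE692007 with Ms4a6c and Zfas1 with Znfx1 had opposite directions. Shared exons were checked only in the 47 members with a GENCODE gene, which leaves out Gm30368 and Gm38733, whose spans overlap Lgals1 and Actb. Exons of 15 of the members checked share bases with another row of the table, 12 of them with a row on the opposite strand. These include Gm15441, which shares 36.2% with Txnip, an inhibitor of the redox protein thioredoxin, and Gm12992, which shares 26.1% with the splicing factor gene Srsf4.

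The spread between replicates limited all of these comparisons. The median absolute log2 ratio of replicate A to B over the members was 0.48 in JAML-positive and 0.38 in JAML-negative libraries. Over the 6833 tested genes with the same count minimum it was 0.38 and 0.35. In the JAML-positive pair 10 members (16.1%) differed more than 2-fold, against 9.7% of those genes, and in the JAML-negative pair 5 members (8.06%) did so, against 10.4% of those genes.

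Proteins that act with these RNAs were described beside them, and 0 of them passed the adjusted test. Of 20 proteins of paraspeckles and nuclear speckles, 10 had higher and 10 lower values (median log2 fold change 0.002, and just below 0 with RLE size factors). Srrm2, a core protein of nuclear speckles, had 495 and 637 CPM in JAML-positive libraries, against 811 and 861 CPM in JAML-negative libraries (-0.56, SE 0.21). Pspc1, a paraspeckle protein, had 52.8 and 69.5 CPM in JAML-positive libraries, against 37.9 and 20.96 CPM in JAML-negative libraries (1.06, SE 0.46). The 2 proteins, one of each body, thus differed in opposite directions (edgeR adjusted p = 0.609 each).

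Of 15 proteins of snoRNA particles, 9 had higher and 6 lower values (median 0.18). Dkc1, the pseudouridine synthase of these particles, had 146 and 153 CPM in JAML-positive libraries, against 75.6 and 59.2 CPM in JAML-negative libraries (log2 fold change 1.15, SE 0.30, edgeR adjusted p = 0.609). Of 17 factors of nonsense-mediated decay, which degrades snoRNA host transcripts among others, 6 had higher and 11 lower values (median -0.16). The kinase Smg1 (-0.70, SE 0.23) and the helicase Upf1 (-0.81, SE 0.32) had lower values, and Rbm8a, of the exon junction complex, had a higher value (0.76, SE 0.29). Of 15 genes of microRNA processing, 5 had higher and 10 lower values (median -0.10), among them Tnrc6a, a partner of Argonaute (-0.60, SE 0.25). Of the 9 tested subunits of RNase P and RNase MRP, the first of which cuts the end of Malat1, 6 had higher and 3 lower values (median 0.31), with Pop4 at 60.7 and 46.1 CPM in JAML-positive libraries, against 20.2 and 23.2 CPM in JAML-negative libraries (1.29, SE 0.48). Pop5, of the same complexes, had 27.0 and 32.9 CPM in JAML-positive libraries, against 9.24 and 0 CPM in JAML-negative libraries. The lists of Xist partners (9 higher, 8 lower, median 0.05) and of nuclear RNA decay and export (11 higher, 7 lower, median 0.14) held no member with an unadjusted p under 0.05. Several list medians lay nearer 0 with the length trend removed. They were then 0.06 for snoRNA particles, -0.12 for nonsense-mediated decay, 0.01 for microRNA processing and 0.16 for RNase P and MRP. For speckle and paraspeckle proteins the median was 0.06, for Xist partners 0.051, and for nuclear RNA decay and export 0.047.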

How the data were processed

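RNA-seq of sorted cells was deposited by the authors as 1 table of read counts per gene for 4 libraries, with the Entrez identifier, symbol and coding type of each row. The submitters' processing notes name GRCm38 (mm10). Per the labels' protocols, total RNA from a Qiagen column went into a SMARTER mRNA-Seq kit. Which aligner and counter were used, and how strand and multiply matching reads were handled, was not given in the sources used here. Reads carry no molecular identifiers.

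The members and all lists were chosen with earlier results of these data known. The fit used edgeR 4.0.16 in R 4.3.3: filterByExpr (minimum count 10), TMM scaling, robust quasi-likelihood, no covariate, Benjamini-Hochberg adjustment over 11563 genes, threshold 0.05. CPM are on the TMM scale, and each SE comes from the size of the log2 fold change and the root of its F statistic. Groups do not overlap where both libraries of one lie above both of the other. The fit was also run on simulated counts, with the same spread for all genes and changes larger than in any member. That run checked the code and does not show what could be detected in these libraries. Named were the 8 members with the highest CPM, the 6 lowest p-values among higher and among lower members, the 3 nearest the count minimum and the members of the role lists, and up to 3 genes of a companion list with an unadjusted p under 0.05. Oip5os1, Peg13, Chaserr, Gt(ROSA)26Sor, Gm12992 and Gm15441 and the neighbours of members were added after their values were seen. Coordinates and start sequences come from RefSeq GRCm38.p6, and lengths and exons from GENCODE M21. Alternatives used DESeq2 1.42.0 and limma 3.58.1.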

Additional observations from a re-analysis of the deposited data

How the results depend on the processing

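The count of members past the adjusted threshold was 0 in the fit of all libraries, 3 with DESeq2, and 0 in every other setting that kept all libraries. A fit with a library left out leaves a single library in its group, so only effect sizes are given for it. The count at an unadjusted p under 0.05, 7 with 2 higher and 5 lower, was 3 to 10 in all, 0 to 6 higher and 2 to 4 lower with one library left out. The higher members at that p were 0 with RLE size factors, 0 with library totals only and 1 with the length trend removed. DESeq2 gave 11 in all, 4 of them higher, and by DESeq2 17.8% of all 11563 tested genes lay under that p. Its 3 adjusted calls were among 536 higher and 349 lower over the whole table. The quasi-likelihood method of edgeR before version 4, chosen after seeing the data, gave 3, 0 higher and 3 lower, against 7.04% of all tested genes. The median log2 fold change of the members was between -0.191 and -0.036 with one library left out. Leaving out JAML-negative A or B moved the median of all genes to 0.133 and 0.13. The letters A and B are shared between the groups, but same-lettered libraries did not deviate together (correlation 0.018 across 11563 genes), and with the letter as a replicate block 0 members passed and the median was -0.074. Of 377 values of 29 named members over 13 settings, 355 kept their direction and 22 turned, in 11 members. Outside the fits with a library left out, Norad turned to -0.0005 with RLE size factors, -0.0056 with library totals only, -0.010 with the replicate block, -0.0093 with DESeq2 and -0.0040 with limma-voom, LOC118567527 to -0.0003 with library totals only, and Epb41l4aos to -0.380 with the length trend removed. With one library left out the ranges of log2 fold change that crossed 0 were -0.941 to 0.716 for A430093F15Rik, -0.433 to 0.586 for Epb41l4aos, -0.064 to 0.254 for Gas5, -0.206 to 1.375 for Gm33104, -0.146 to 0.774 for LOC118567469, -0.198 to 0.258 for LOC118567527, -0.451 to 0.347 for Norad, -0.453 to 0.080 for Snhg1, -0.544 to 0.258 for Snhg12, -0.162 to 0.395 for Snhg17 and -0.834 to 0.331 for Snhg8. The cause was not tested. With 2 libraries a group, 1 library decides many values, and intervals cover the spread between these libraries only.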
